A study of Mus musculus with 2 samples.

Results

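The genes described are 8 genes of monoamine transport and breakdown in the mouse adrenal gland: the vesicular carriers Slc18a1, Slc18a2 and Slc18b1, the plasma membrane carriers Slc6a2, Slc22a3 and Slc29a4, and the amine oxidases Maoa and Maob. They were found by gene symbol. The second transcript table carries the symbols, and those of the gene table came from its gene identifiers through the GENCODE M21 annotation. All 8 were found among the 55536 GENCODE genes of the gene table. Total RNA of adrenal glands was sequenced from female mice of the F1 hybrid strain B6CASTF1/J, 14 days old, as 1 group of 2 libraries called replicate 2 and replicate 1. The input was 300 ng of RNA per library, with ERCC spike-ins (synthetic RNAs of known amount) added, and no treatment or mutation is named in the labels. The labels give the replicates 1 donor identifier and 1 library description, which names 3 females, while a further label of replicate 2 points to 1 female. It is therefore unsettled whether they are different animals or pools. The p-values set the differences between these samples against counting error only and measure no spread between animals. The differences may be technical.

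Monoamines such as adrenaline, noradrenaline, dopamine, serotonin and histamine are loaded into secretory vesicles by carriers that exchange protons for amine. After release they are taken back into cells by carriers of the plasma membrane, some of high affinity in the amine-releasing cells and others of high capacity in many tissues. In the cytosol many of them are oxidised by monoamine oxidases on the outer mitochondrial membrane. In the adrenal gland the chromaffin cells of the medulla make and store adrenaline and noradrenaline, and the surrounding cortex makes steroids.

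A few sequences show how alike the paired members are and therefore how far reads could pass between them. The coding sequences of Slc18a1 and Slc18a2 were identical at 67.7% of 1537 aligned bases, and the longest identical run held 15 bases. The stretches of mouse mm10 around that run lie in exon 11 of Slc18a1 (chr8:69051281-69051355, minus strand) and exon 10 of Slc18a2 (chr19:59276510-59276584, plus strand), with the run in capitals.
Slc18a1: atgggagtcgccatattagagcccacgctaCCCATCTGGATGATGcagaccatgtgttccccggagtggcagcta
Slc18a2: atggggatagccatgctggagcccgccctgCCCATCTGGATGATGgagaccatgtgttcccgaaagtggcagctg

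Maoa and Maob were more alike, with 71.3% identity over 1548 aligned coding bases and a longest identical run of 35 bases. Both enzymes bind their flavin cofactor through a cysteine, which is codon 406 of Maoa and codon 397 of Maob. The coding stretches around it run from exon 11 to exon 13 in both genes (chrX:16680869-16683967 on the plus strand for Maoa, chrX:16712674-16718258 on the minus strand for Maob, introns left out), with the 5 codons of the flavin attachment motif in capitals.
Maoa: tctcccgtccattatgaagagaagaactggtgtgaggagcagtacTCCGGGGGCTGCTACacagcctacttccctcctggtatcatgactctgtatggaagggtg
Maob: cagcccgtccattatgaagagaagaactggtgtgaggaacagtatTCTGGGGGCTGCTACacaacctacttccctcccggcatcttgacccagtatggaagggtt

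These stretches were identical at 92 of 105 bases, and at 14 of the 15 capitals. For counting, stretches of 31 bases shared with other genes matter, since reads from them could be given to either gene. The main transcript of Maob shared 5 of its 2381 such stretches, all with Maoa, and that of Slc18a1 shared 1 of 3085, with Cyp19a1. Those of Slc22a3 and Slc29a4 shared 0. Only main transcripts were searched, and Slc22a3-202, which is not one, has 420 exon bases in common with Plg, as given further on. Slc18a2 shared 71 of 3755, all with Gm29261, an annotated antisense gene listed at 0 and 1 counts in replicate 2 and replicate 1. This was 1.89% of its stretches. Maoa shared 6.91%, Slc18b1 5.77% and Slc6a2 1.69%, with 358, 255 and 1137 other genes in all. The gene sharing most was Gm26691 for Maoa (143 of 286 stretches), Vmn2r26 for Slc18b1 (47 of 162) and Lmbrd1 for Slc6a2 (44 of 101).

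The RefSeq promoter table (GRCm38.p6) held windows for 5 of the 8 members, Slc18a2, Slc18b1, Slc22a3, Slc29a4 and Maoa. Shown are the bases before the GENCODE start of the main transcript of 3 of them, both of the 5 that were lower in replicate 2 and the 1 that was higher, as given further on. They are Slc18a2 (chr19:59260628-59260895, plus strand), Slc29a4 (chr5:142701851-142702100, plus strand) and Slc22a3 (chr17:12507705-12507954, minus strand), with capitals for the GC box GGGCGG and the cAMP response element TGACGTCA, each searched on both strands.
Slc18a2: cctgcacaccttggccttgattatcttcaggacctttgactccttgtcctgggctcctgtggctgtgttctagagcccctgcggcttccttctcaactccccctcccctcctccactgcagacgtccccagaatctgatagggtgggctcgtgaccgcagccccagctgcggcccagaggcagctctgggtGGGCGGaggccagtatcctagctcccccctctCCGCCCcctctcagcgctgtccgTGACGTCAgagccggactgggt
Slc29a4: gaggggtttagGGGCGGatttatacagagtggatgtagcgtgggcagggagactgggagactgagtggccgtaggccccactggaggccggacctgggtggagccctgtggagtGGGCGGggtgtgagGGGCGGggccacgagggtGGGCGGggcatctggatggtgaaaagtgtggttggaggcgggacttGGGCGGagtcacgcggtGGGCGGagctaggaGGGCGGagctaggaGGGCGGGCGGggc
Slc22a3: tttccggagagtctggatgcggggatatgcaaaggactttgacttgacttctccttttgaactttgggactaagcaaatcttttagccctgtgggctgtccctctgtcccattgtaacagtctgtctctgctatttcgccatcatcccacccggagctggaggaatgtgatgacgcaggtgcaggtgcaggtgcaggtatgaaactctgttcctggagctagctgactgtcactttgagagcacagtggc

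The 300-base RefSeq window of Slc18a2 held 1 cAMP response element, 14 bases before the GENCODE start, and 1.79% of all 32851 windows of that length held one. The windows of the other 4 members had none. Slc29a4 had 9 GC boxes, the last pair overlapping, and 99.88% of windows had fewer. Slc18a2, Slc18b1 and Maoa had 2 GC boxes each and Slc22a3 had 0, and 35.7% of all windows held at least 1. These are matches of letters in a window, not sites of binding.

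The libraries had totals of 33844950 expected counts in replicate 2 and 37586172 in replicate 1. They differed in their makeup across the whole table, so the members' differences are given beside the markers. Among the 16137 genes that averaged 20 counts or more, 53.2% were called in either direction, 28.5% higher and 24.6% lower in replicate 2, beyond counting noise, by an exact conditional binomial test on counts scaled by TMM (two-sided, Benjamini-Hochberg adjusted p under 0.05). This test compares the reads of these libraries, not conditions, and its intervals cover counting error only. The 12 hepatocyte markers were all called higher, with summed levels of 23665 TPM in replicate 2, against 420 TPM in replicate 1, and none was at 0 in either library. The 10 skeletal muscle markers were all called higher too, with summed levels of 555 and 26.3 TPM in replicate 2 and replicate 1. All 9 T cell markers were called lower, with summed levels of 2.20 TPM in replicate 2 (none of the 9 at 0 counts) and 50.1 TPM in replicate 1. Of the markers of the gland itself, 11 of 12 cortex genes were lower, 0 were higher and 1 was not called, with summed levels of 4349 TPM in replicate 2, against 10071 TPM in replicate 1. Of the 29 chromaffin cell genes, 20 were lower, 1 was higher and 8 were not called, with summed levels of 967 TPM in replicate 2, against 2147 TPM in replicate 1. None of these cortex and chromaffin cell genes was at 0 counts in either library. Among other cell types, 9 of 10 fat genes were higher and 1 was lower (median log2 difference 0.58), and higher were 5 of 6 fibroblast genes (median 0.83), 5 of 6 macrophage genes (1.09), all 6 smooth muscle genes (0.46), 3 of 6 endothelial genes with 2 lower (0.15) and 1 of 5 Schwann and sustentacular cell genes (0.44). In bulk tissue, fewer cells of a type and less RNA per cell cannot be told apart, and the part of these cell types in the members' differences was not tested.

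All 8 members passed the count filter. In replicate 2, 3 of the 8 were called higher (Slc6a2, Slc22a3 and Maob), 3 were called lower (Slc18a1, Slc18a2 and Slc29a4) and 2 were not called (Slc18b1 and Maoa). Those counts, 6 of 8 in either direction, stand beside shares of 53.2% in either direction, 28.5% higher and 24.6% lower over all genes tested. The median log2 difference was -0.12 over the members and -0.00 over all genes tested. Over 2-fold higher were 2 members, Slc22a3 and Maob, against 8.38% of all genes, and 0 members were over 2-fold lower, against 2.55% of all genes. These counts turn with the scaling: under total counts and under spike-ins 1 member, Maob, was over 2-fold higher and 2, Slc18a1 and Slc29a4, were over 2-fold lower. Slc22a3 was then at 0.71 and 0.77, Slc18a1 at -1.08 and -1.02 and Slc29a4 at -1.07 and -1.004 on the log2 scale, and of all genes 6.54% and 6.74% were over 2-fold higher and 6.82% and 5.68% over 2-fold lower.

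**Figure D1:**
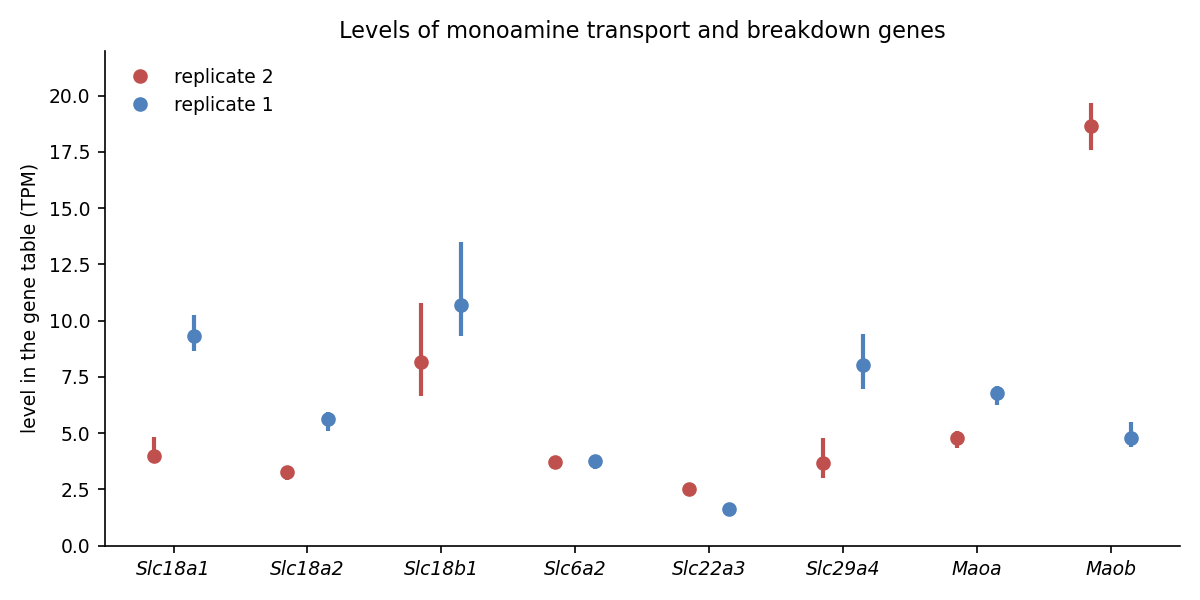
Level of each member in the gene table in TPM (vertical axis, linear from 0), replicate 2 in red left of replicate 1 in blue. Points are the deposited values and lines the deposited interval bounds, whose level is not stated. Maob stands at 18.67 TPM in replicate 2, against 4.80 TPM in replicate 1, the widest gap of the 8 members.

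In TPM, a level per transcript length, the order of the members differed between the libraries. In replicate 2 it ran Maob, Slc18b1, Maoa, Slc18a1, Slc6a2, Slc29a4, Slc18a2 and Slc22a3. In replicate 1 it ran Slc18b1, Slc18a1, Slc29a4, Maoa, Slc18a2, Maob, Slc6a2 and Slc22a3. Slc22a3 was the lowest of the 8 in both. The deposited interval bounds of neighbours in replicate 2 overlapped from Maoa down to Slc18a2, and did not overlap between Maob and Slc18b1, Slc18b1 and Maoa, or Slc18a2 and Slc22a3. In replicate 1 they overlapped from Slc18b1 down to Maoa and between Slc18a2 and Maob. Slc18b1 had a TPM above that of 73.3% of protein-coding genes in replicate 2 and 74.7% in replicate 1, and Slc22a3 above that of 53.3% and 47.8%. Mean levels over the libraries ran from 2.08 ± 0.62 TPM for Slc22a3 to 11.7 ± 9.81 TPM for Maob (SD, n = 2), and the SD of Maob was wide enough to cover the means of all other members.

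Among the vesicular carriers, Slc18a1 and Slc18a2 were lower in replicate 2 and Slc18b1 did not pass the test. Slc18a1 (ENSMUSG00000036330.12, chr8:69037711-69089235, minus strand) encodes the vesicular monoamine carrier known from endocrine and chromaffin cells. It had 3.98 TPM in replicate 2 (381 counts) and 9.33 TPM in replicate 1 (898 counts). The log2 difference on scaled counts was -0.75 (95% interval -0.92 to -0.57; adjusted p = 2.58e-17, exact conditional binomial test), or 0.597-fold. Its interval lay on the same side of 0 as the chromaffin cell median of -0.63, and 9 of the 29 chromaffin cell genes had a lower difference.

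Slc18a2 (ENSMUSG00000025094.8, chr19:59260896-59296012, plus strand) encodes the vesicular carrier of monoamine neurons, mast cells and platelets, which chromaffin cells also use. It had 3.28 TPM in replicate 2 (402 counts) and 5.62 TPM in replicate 1 (722 counts), a log2 difference of -0.35 (95% interval -0.53 to -0.18; adjusted p = 2.33e-04, exact conditional binomial test). The interval of Slc18a2 overlapped neither that of Slc18a1 nor 0, so the fall of Slc18a2 was the smaller on counting error alone. Markers of the other cells that store amines with this carrier were counted too. Of 6 mast cell genes tested 1, Hdc, was lower and 5 were not called, with a median of 0.01. Hdc is also counted among the synthesis genes given further on. Of 3 platelet genes tested, with 12 to 85 counts per library, 1 was higher, 1 was lower and 1 was not called. Their median was -0.45.

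Slc18b1 (ENSMUSG00000037455.16, chr10:23796986-23827968, plus strand) is a relative of these carriers known for moving polyamines into vesicles. It had 8.17 TPM in replicate 2 (430 counts) and 10.71 TPM in replicate 1 (672 counts), a log2 difference of -0.15 (95% interval -0.33 to 0.02; adjusted p = 0.145, exact conditional binomial test). It was the highest of the vesicular carriers in both libraries of the gene table, but in replicate 1 this rests on short transcripts: Slc18b1-201 alone was at 6.75 TPM there, below Slc18a1-201 at 7.81 TPM, and the short Slc18b1-202 added 2.82 TPM. In the second table Slc18a1 was above it in replicate 1, at 12.66 TPM against 12.59 TPM for Slc18b1.

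Within a library the carriers can be set against each other. Slc18a1 was 1.21 times Slc18a2 in replicate 2 and 1.66 times in replicate 1, a mean log2 ratio of 0.51 ± 0.32 (SD, n = 2). In TPM the direction was the same in both libraries and both tables, with ratios of 1.37 in replicate 2 and 1.79 in replicate 1 in the second table. In counts, which leave out transcript length, it turned in replicate 2, with 381 counts for Slc18a1 and 402 for Slc18a2 (415 and 444 in the second table), and the mean log2 ratio was 0.12. Against Th, the first enzyme of catecholamine synthesis, Slc18a1 was at 0.0608 of its TPM in replicate 2 and 0.0536 in replicate 1, and the log2 ratio of -4.13 ± 0.13 (SD, n = 2) had the smallest SD of the 9 ratios computed. Slc18a2 was at 0.0501 of Th in replicate 2 and 0.0323 in replicate 1. The synthesis enzymes Th, Dbh and Pnmt were lower in replicate 2 by the same test, with log2 differences of -0.99, -0.79 and -0.68. They are counted among the 20 of 29 chromaffin cell genes that were lower. Ddc, a further synthesis enzyme of that list, was not called, at -0.04.

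The plasma membrane carriers did not share a direction: Slc6a2 and Slc22a3 were higher in replicate 2 and Slc29a4 was lower. Slc6a2 (ENSMUSG00000055368.14, chr8:92960079-93001667, plus strand) encodes the noradrenaline transporter, the high-affinity carrier of noradrenergic and chromaffin cells. It had 3.74 TPM in replicate 2 (731 counts) and 3.75 TPM in replicate 1 (767 counts), almost the same level on the TPM scale. On TMM-scaled counts the log2 difference was 0.42 (95% interval 0.27 to 0.57; adjusted p = 9.04e-08, exact conditional binomial test). The call rests on the scaling, with 0.08 on total counts (adjusted p = 0.333, same test) and 0.15 on spike-in counts (adjusted p = 0.0755, same test). Set against the chromaffin cell list, 28 of its 29 genes had a lower difference than Slc6a2 under the same scaling. The ratio of Slc6a2 to Th was 0.0571 in replicate 2 and 0.0215 in replicate 1.

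Slc22a3 (ENSMUSG00000023828.3, chr17:12418960-12507704, minus strand) encodes organic cation transporter OCT3, a carrier of high capacity and low affinity that takes up monoamines outside neurons. It had 2.52 TPM in replicate 2 (288 counts) and 1.64 TPM in replicate 1 (196 counts), a log2 difference of 1.04 (95% interval 0.78 to 1.32; adjusted p = 2.10e-14, exact conditional binomial test). On the opposite strand it overlaps Plg, the plasminogen gene of liver, which had 253 TPM in replicate 2, against 3.97 TPM in replicate 1 (log2 difference 6.41), and whether the authors' counting used strand is not given in the sources used here. The exons of the genes share 420 bases, all in Slc22a3-202 and 0 in Slc22a3-201. Slc22a3-201 alone, taken after the values were seen, had 252 counts in replicate 2 and 178 in replicate 1 in the first transcript table, a log2 difference of 0.99 (95% interval 0.71 to 1.28). In the second table it had 326 and 227 counts in replicate 2 and replicate 1, a log2 difference of 1.11 (0.86 to 1.36). These counts are each table's division of reads between the transcripts of Slc22a3, not counts with the overlapping bases removed. The part of Plg in the difference was not tested.

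Slc29a4 (ENSMUSG00000050822.11, chr5:142692512-142722490, plus strand) encodes the plasma membrane monoamine transporter PMAT, another low-affinity carrier. It had 3.67 TPM in replicate 2 (285 counts) and 8.05 TPM in replicate 1 (664 counts), a log2 difference of -0.73 (95% interval -0.94 to -0.53; adjusted p = 1.48e-12, exact conditional binomial test). Its interval overlapped that of Slc18a1 over nearly its whole width. The low-affinity carriers stood in the same order in both libraries but not at the same distance, since Slc22a3 was at 0.687 of the TPM of Slc29a4 in replicate 2 and 0.204 in replicate 1.

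**Figure D2:**
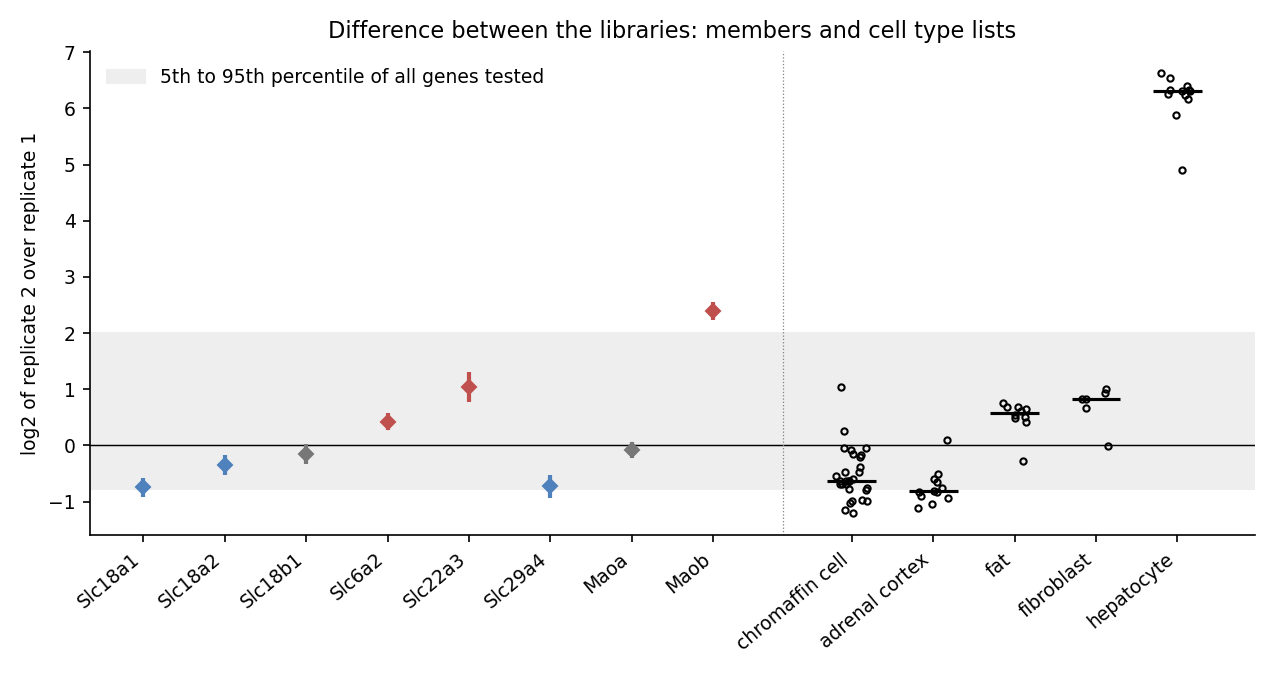
log2 of replicate 2 over replicate 1 on TMM-scaled counts. On the left are the 8 members, with 95% counting intervals, red where called higher, blue where called lower and grey where not called. On the right are the genes of 5 marker lists as open circles with their medians as bars, and the grey band spans the 5th to 95th percentile of all genes tested, -0.77 to 2.01. Of the members Maob alone, at 2.39, lies outside the band, and it lies below the hepatocyte genes, whose lowest is at 4.91.

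The amine oxidases lay apart from each other. Maoa (ENSMUSG00000025037.6, chrX:16619698-16687818, plus strand) encodes the oxidase that prefers serotonin and noradrenaline. It had 4.80 TPM in replicate 2 (644 counts) and 6.80 TPM in replicate 1 (957 counts), a log2 difference of -0.08 (95% interval -0.23 to 0.06; adjusted p = 0.382, exact conditional binomial test).

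Maob (ENSMUSG00000040147.14, chrX:16709282-16817366, minus strand) encodes the oxidase that prefers phenylethylamine and lies tail to tail with Maoa, 21463 bases away. It had 18.67 TPM in replicate 2 (1409 counts) and 4.80 TPM in replicate 1 (377 counts). The log2 difference was 2.39 (95% interval 2.23 to 2.56; adjusted p = 1.23e-225, exact conditional binomial test), or 5.25-fold, and 95.5% of all genes tested had a lower difference. Hepatocyte markers moved the same way with a median of 6.31 and skeletal muscle markers with a median of 4.93. Their part in the difference of Maob was not tested.

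In replicate 2 Maoa was at 0.257 of the TPM of Maob, and in replicate 1 at 1.42, so the oxidase of higher level was not the same gene in both libraries. The mean log2 ratio was -0.73 ± 1.74 (SD, n = 2), the widest SD of the 9 ratios. As a ratio of expected counts the mean was 0.11, so its sign turned. The second table gave ratios of 0.197 in replicate 2 and 1.25 in replicate 1. The main transcripts of Maob and Maoa share 5 stretches of 31 bases, as given with the sequences. The part of shared stretches in the ratio was not tested.

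Around the members stand other genes of the same routes. Of 10 monoamine synthesis genes tested, 4 were higher, 4 were lower and 2 were not called, with a median log2 difference of 0.03. The lower ones were Th, Dbh, Pnmt and Hdc, the histamine-making enzyme at 2.68 TPM in replicate 2, against 6.49 TPM in replicate 1. The higher ones were Pts, Spr, Qdpr and Pcbd1, which make or recycle the tetrahydrobiopterin cofactor, with log2 differences of 0.48, 1.06, 0.76 and 3.27. Of these Pcbd1 was farthest apart, with 52.49 and 7.21 TPM in replicate 2 and replicate 1. Ddc, which forms dopamine and serotonin, and Gch1, the first enzyme of the cofactor route, were not called, at -0.04 and 0.10. The serotonin-making enzymes Tph1 and Tph2 had at most 2 counts in either library and were not tested.

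Of 4 other carriers tested, 2 were higher, 1 was lower and 1, the vesicular nucleotide carrier Slc17a9, was not called. Slc6a4, the serotonin transporter, was lower, at 4.60 TPM in replicate 2, against 10.59 TPM in replicate 1 (log2 difference -0.95). Slc47a1, a proton-coupled cation exporter, was higher, at 6.83 TPM in replicate 2, against 0.57 TPM in replicate 1. Slc6a3, the dopamine transporter, had 0 counts in both libraries, which allows up to 3 counts, or 8.86e-06% of the counts in replicate 2 and 7.98e-06% in replicate 1.

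Of 12 other breakdown enzymes tested, 7 were higher, 2 were lower and 3 were not called, with a median log2 difference of 0.33. Sult1a1, a phenol sulfotransferase, was higher by 2.58 and Aldh1b1, an aldehyde dehydrogenase, by 2.75 on the log2 scale. Aldh2, the mitochondrial aldehyde dehydrogenase that follows the oxidases, had the highest level of the list in the gene table, with 307 TPM in replicate 2, against 335 TPM in replicate 1. In the second table Akr1a1, an aldehyde reductase, was above it in replicate 1, at 545 TPM against 413 TPM for Aldh2. The lower ones were Aldh1a1 at -0.25 and Akr1b3 at -0.46, and Akr1a1, Rnls and Aoc2 were not called, at -0.02, 0.20 and -0.14. Aldh3a2 at 0.91, Aldh9a1 at 0.57, Aldh2 at 0.34 and Aoc3 at 0.31 on the log2 scale were also called higher.

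For each member the nearest log2 differences were sought among 141 genes of the pathway and marker lists, which over 2 libraries is a likeness of 1 difference only. Hsd3b1, a steroid enzyme of the cortex, and Pcsk2, a prohormone convertase, were nearest to both Slc18a1 and Slc29a4. Phox2a and Plvap were nearest to Slc18a2, Ret and Cpa3 to Slc18b1, Plin1 and Cdh5 to Slc6a2, Prph and Spr to Slc22a3, and Penk and Ddc to Maoa. Maob had the widest gaps, 0.19 to Sult1a1 and 0.22 to Actn3.

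**Figure D3:**
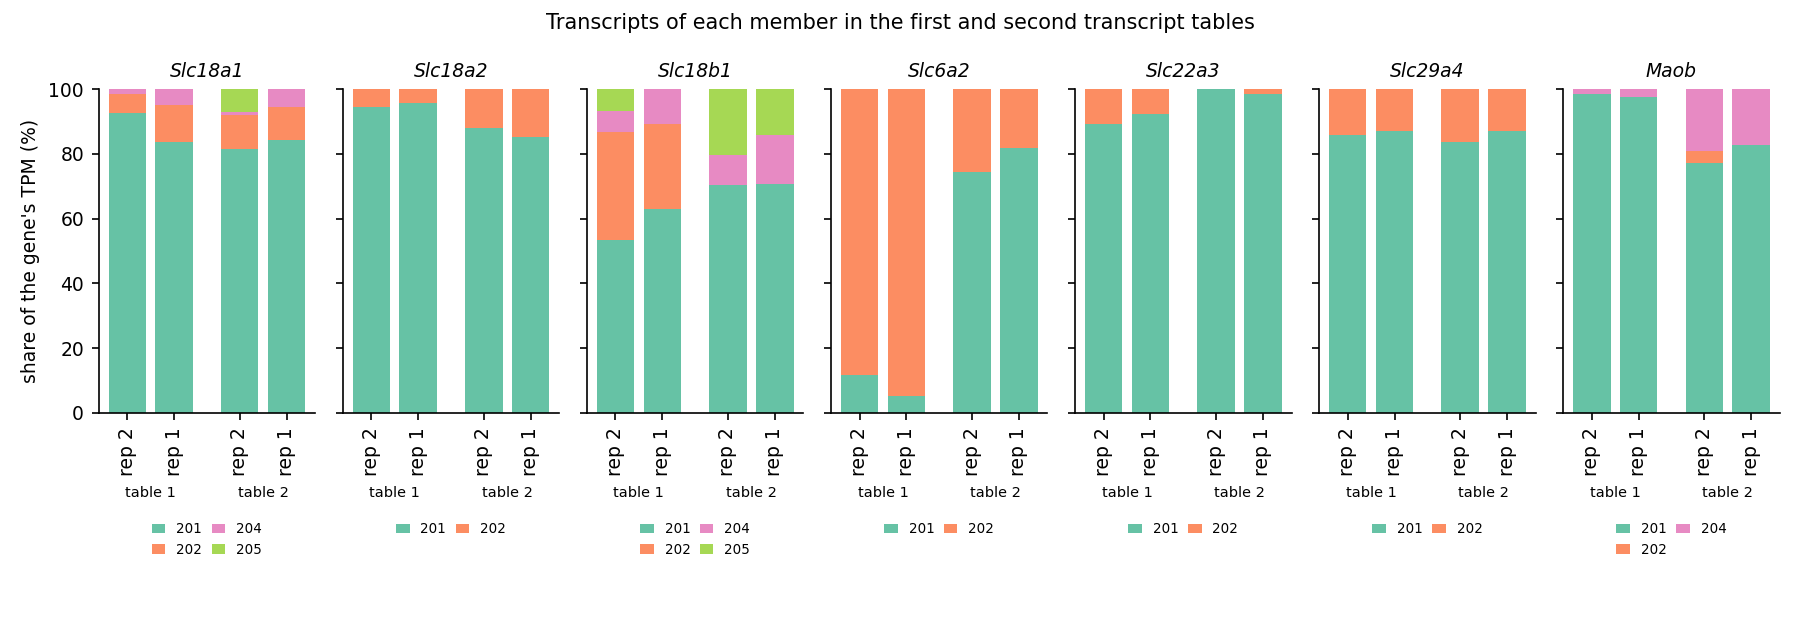
Share of each member's TPM given to each annotated transcript, in percent from 0 to 100, for 7 members with more than 1 transcript. In each panel the first pair of bars is the first transcript table and the second pair the second table, replicate 2 left of replicate 1. The colours of Slc6a2 change places between the tables, with Slc6a2-202 at 88.4% and 94.9% in the first and 25.8% and 18.1% in the second.

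The tables give the members 24 annotated transcripts, of which Maoa has 1 and the others 2 to 6. Slc6a2 has transcripts with different first exons and 15 or 14 exons in all, Slc6a2-202 starting at chr8:92960079 and Slc6a2-201 at chr8:92960933. In the first table Slc6a2-202 held 88.4% of the gene in replicate 2 and 94.9% in replicate 1, and in the second it held 25.8% and 18.1%. The deposited bounds of Slc6a2-201 in replicate 2 spanned 0.0463 to 1.75 TPM, so the first table itself placed it loosely.

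Slc18b1-202, a fragment of 224 bases annotated for nonsense-mediated decay, held 33.1% of the gene's TPM in replicate 2 and 26.3% in replicate 1 in the first table, from 11.2 and 12.2 counts, and 0% in the second. Slc18b1-201, the full-length coding transcript, held 53.5% in replicate 2 and 63.0% in replicate 1 in the first table and 70.3% and 70.5% in the second. By this short fragment the TPM of Slc18b1 in the gene table stood higher than its long transcript alone gave, which was 4.37 TPM in replicate 2, against 6.75 TPM in replicate 1.

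For Maob the first table gave Maob-201, the coding transcript, 98.6% in replicate 2 and 97.6% in replicate 1, and the second table gave it 77.2% and 82.8%. The rest of the second table went mostly to Maob-204, annotated for nonsense-mediated decay, at 19.3% in replicate 2 and 17.2% in replicate 1. Maob-201 alone had 1403 counts in replicate 2 and 374 in replicate 1 in the first table. The retained-intron transcript Slc18a2-202 held 5.70% in replicate 2 and 4.43% in replicate 1 in the first table and 11.9% and 14.8% in the second. Slc29a4-201 held 83.6% to 87.2% over both tables and libraries, and Slc18a1-201 held 81.5% to 92.7%.

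**Figure D4:**
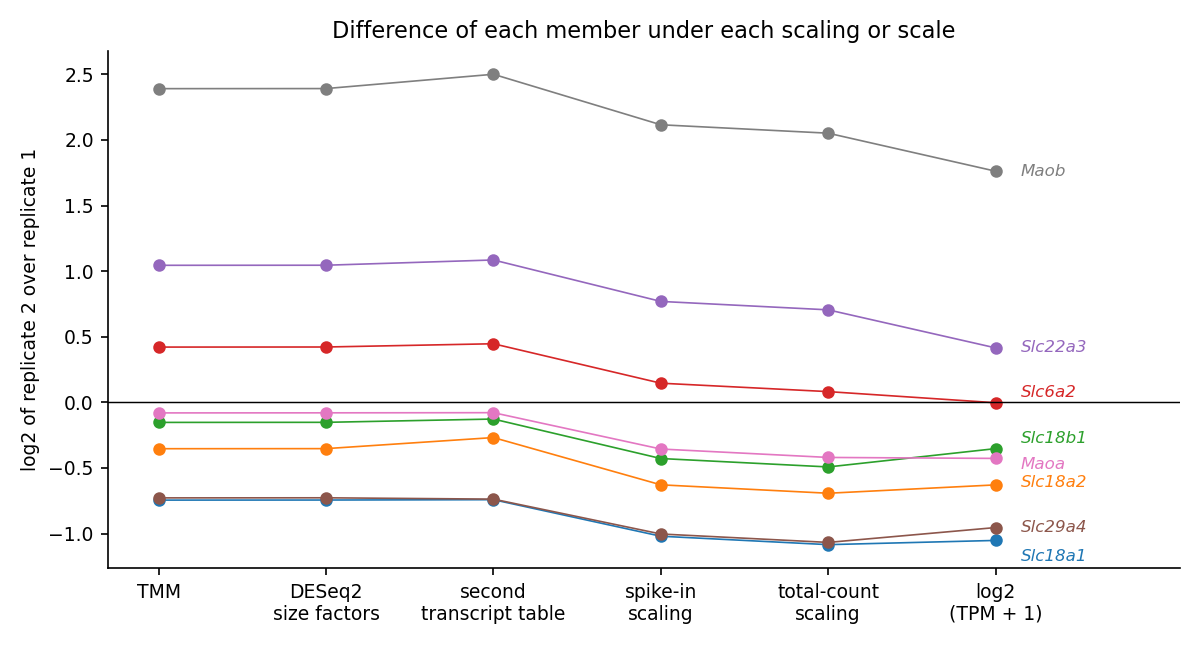
log2 of replicate 2 over replicate 1 for each member with the gene table's counts scaled by TMM, by DESeq2 size factors, by spike-ins or by totals, with the second transcript table, and on the log2(TPM + 1) scale at the right. The lines of TMM, DESeq2 size factors and the second table lie together, and all members drop under spike-in and total-count scaling, where Slc6a2 comes to 0.15 and 0.08.

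The split of the members depends on the scaling as that of all genes does. Under total-count scaling 14.0% of genes were called higher and 58.3% lower, and the median of all genes was -0.34 on the log2 scale. Under spike-in scaling the shares were 15.6% and 52.8%, with a median of -0.28. Of the members, 2 were then higher (Slc22a3 and Maob), 5 were lower and 1, Slc6a2, was not called, under either scaling. The members' medians were -0.46 under total counts and -0.39 under spike-ins. Total-count, spike-in and TMM scaling differ by the same amount for every gene. The members' distance of 0.11 below the median of all genes is therefore the same in all of them by construction.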

How the data were processed

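Tables of 2 total RNA-seq libraries of 1 group were used. Per the deposited description files, the build is mm10 and the annotation GENCODE M21. The gene table and one transcript table, called first, were derived from reads aligned to transcripts, and another transcript table, called second here, from the reads and an index. The sources used here give no tool, version or strand setting. Per the file headers, the authors deposited expected counts, TPM and bounds of an interval on TPM for genes and transcripts. They also deposited, for each transcript, its percent of the TPM of its gene. In the second transcript table the authors deposited estimated counts and TPM. TPM is relative to all entries of a table.

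Genes sharing a symbol were summed and expected counts rounded. Counts were scaled with TMM (edgeR 4.0.16, R 4.3.3). Each difference is the log2 of the scaled counts of replicate 2 over those of replicate 1, with 0.5 added as prior count and Clopper-Pearson intervals at 95% (scipy 1.17.1). The p-values come from an exact two-sided conditional binomial test, by doubling of the smaller tail, and were adjusted by Benjamini-Hochberg over 16137 genes averaging 20 counts or more, without mitochondrial genes. The scripts were tested on simulated data. Totals were 33844950 counts in replicate 2 and 37586172 in replicate 1, of which spike-ins took 0.322% and 0.337%. Alternatives were the count minimum (1 and 50), DESeq2 1.42.0 size factors, total-count and spike-in scaling, the second table, pseudocounts, protein-coding TPM and leaving out a replicate. Coding sequences came from GENCODE M21 transcripts and promoters from RefSeq (GRCm38.p6).

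Named are the members, genes of the pathway lists with a mean of at least 1 TPM, summed markers, the 2 nearest genes in difference, and overlapping genes. Some list genes are counted but not reported here by name. The members and lists were chosen with earlier results of these data known.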

Additional observations from a re-analysis of the deposited data

How the results depend on the processing

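Between replicate 2 and replicate 1, the number of members called higher was 2 or 3 under all scalings, tables and count minimums. The number called lower was 3, and 5 under total-count scaling and under spike-in scaling, where members over 2-fold higher and lower numbered 1 and 2 in place of 2 and 0. Of all genes, 14.0% were called higher and 58.3% lower under total counts, and 15.6% and 52.8% under spike-ins. The shares were 28.8% and 22.1% in the second table, 19.6% and 16.1% at a count minimum of 1, and 30.6% and 26.5% at 50. The members' median log2 difference of -0.12 became -0.46 under total counts, -0.39 under spike-ins, -0.39 on log2(TPM + 1) and -0.44 on log2(TPM + 0.1), where the median of all genes was -0.34, -0.28, -0.31 and -0.41. Under total counts and spike-ins the log2 difference was -0.49 and -0.43 for Slc18b1, -0.42 and -0.36 for Maoa, both then called lower, and 0.082 and 0.15 for Slc6a2, then not called. Slc6a2 was at -0.0030 on log2(TPM + 1) and -0.0038 on log2(TPM + 0.1). The log2 ratio of Slc18a1 to Slc18a2 was 0.12 as a ratio of counts, which leave out transcript length. Leaving out 1 library gave 0.28 to 0.73 for this ratio and -1.96 to 0.50 for Maoa to Maob. Levels rescaled over protein-coding genes were all higher, from 5.33 TPM for Slc22a3 to 30.7 TPM for Maob. Total-count and spike-in scaling move every gene by the same amount, and rescaling over fewer genes raises every level. Those shifts follow from the method. On log2(TPM + 1) the genes did not move equally: Slc22a3 went from 1.04 to 0.42 and Slc18a1 from -0.75 to -1.05. What makes the scalings differ was not tested. No paired analysis was possible because there is 1 group, and the test cannot be run without a library. Depth limits the precision of Slc22a3, with 288 counts in replicate 2 and 196 in replicate 1, and of Slc29a4, with 285 and 664.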
